A study of Mus musculus with 8 samples.

Results

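The 41 genes described here encode parts of the lysosome and of the autophagy machinery. They were picked by gene symbol for their known function out of 55304 genes in a table of read counts. All 41 were found in the table, and all passed the filter on low counts that left 17440 genes for testing. The libraries were made from mouse kidney cells that bind Dolichos biflorus agglutinin (DBA), a plant lectin used to collect epithelium of the collecting duct. Mice were wild type (WT) or modelled ADPKD, the dominantly inherited form of polycystic kidney disease, in which cysts grow from tubules. Mice of both genotypes were given 666-15, a small-molecule inhibitor of the transcription factor CREB, or DMSO as vehicle. The dose of 666-15 was 5 mg/kg a day on 5 days running and then 2 days without, starting on postnatal day 11 and going on for 3 weeks. This gave 4 groups of 2 libraries, called WT vehicle, WT 666-15, ADPKD vehicle and ADPKD 666-15 below. The labels do not name the altered gene of the ADPKD mice, a driver line, a strain or the sex of the mice. Nor do they state whether each library was made from its own animal, and p-values therefore measure the spread between these libraries. That spread may be technical, except in WT 666-15, whose libraries came from mice of different sex by their counts, given below. The labels give the cell type as DBA-positive cells, although the extraction text also speaks of whole kidney.

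The lysosome is an acidic organelle in which cathepsin proteases, glycosidases and lipases break down material brought in by endocytosis or by autophagy. A proton pump, the V-ATPase, keeps it acidic, and heavily glycosylated membrane proteins such as LAMP1 and LAMP2 line it. In autophagy the kinase ULK1 and the BECN1 complex start a membrane sac, the ATG5, ATG7, ATG12 and ATG16L1 conjugation system attaches ATG8 proteins (the LC3 and GABARAP families) to it, and receptors such as p62, encoded by Sqstm1, load cargo. The transcription factors TFEB, TFE3 and MITF bind an E-box in many promoters of lysosomal genes (the CLEAR element), and kidney tubule cells use lysosomes heavily to degrade reabsorbed protein.

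Levels are given as CPM, the share of a library's counts that a gene took up scaled to a fixed total, after scaling the libraries to each other. Differences are log2 fold changes ± standard error from a single edgeR quasi-likelihood model of the 8 libraries, with 2 libraries in each group. A gene is said to have risen or fallen where its p, adjusted over all 17440 genes, was below 0.05. Levels of different genes are compared only per kilobase of the longest transcript.

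Total counts ranged from 15108793 to 19702638 per library, and log2 CPM of the 2 libraries of a group correlated at 0.978 to 0.987 across genes. The WT 666-15 replicate 2 held 17688 counts of Xist, an RNA of the inactive X chromosome, and 0 counts of the Y-linked Ddx3y, whereas the other 7 libraries held at most 8 and at least 1776. By these counts WT 666-15 joins a female and a male library, which came from different animals, and the other groups are male. The part of sex in comparisons that use WT 666-15, and in the X-linked members Gla, Lamp2 and Tfe3, was not tested. Among DBA-positive cells the collecting duct would supply principal cell markers. These made up 0.109% to 0.148% of counts in WT vehicle and 0.602% to 0.609% in WT 666-15. They made up 0.152% to 0.187% in ADPKD vehicle and 0.193% to 0.228% in ADPKD 666-15. Between the vehicle groups 6 of the 9 tested markers were higher in ADPKD cells and 1 was lower. The part of these markers in the members' values was not tested. Aqp2, the most abundant principal cell marker, was at 276 to 2078 CPM over the 8 libraries. The principal cell marker Avpr2, a vasopressin receptor, was at 0 in 4 of the 8 libraries, namely replicate 2 of each group. Markers of the proximal tubule, which DBA does not select, made up 1.55% to 1.78% of counts in WT vehicle, 0.622% to 0.66% in WT 666-15, 0.0409% to 0.0425% in ADPKD 666-15 and 0.00809% to 0.0102% in ADPKD vehicle. Fewer cells of a type and less RNA per cell cannot be told apart in such bulk libraries.

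Since lysosomal genes are known for the CLEAR element, 5 promoters that hold it, its core or the CREB element are printed here: 3 from genes that rose in ADPKD cells (Ctsd, Gla and Gusb) and 2 from genes that fell (Ctsa and Lamp1). RefSeq sequences on GRCm38.p6, each 300 bases from 250 before to 50 after the annotated start, were found for 33 of the 41 genes, in 41 windows. Capitals mark CACGTG, which is the E-box core, TCACGTGA, its longer CLEAR form, TGACG with its other strand CGTCA, and TGACGTCA, the cAMP response element that CREB binds. The longer forms contain the shorter ones. Sequences run 5′ to 3′ on the strand of the gene. The windows lie at chr7:142387778-142388077 (minus strand) for Ctsd, chrX:134600956-134601255 (minus) for Gla, chr5:130003000-130003299 (minus) for Gusb, chr2:164833523-164833822 (plus) for Ctsa and chr8:13158911-13159210 (plus) for Lamp1.
Ctsd: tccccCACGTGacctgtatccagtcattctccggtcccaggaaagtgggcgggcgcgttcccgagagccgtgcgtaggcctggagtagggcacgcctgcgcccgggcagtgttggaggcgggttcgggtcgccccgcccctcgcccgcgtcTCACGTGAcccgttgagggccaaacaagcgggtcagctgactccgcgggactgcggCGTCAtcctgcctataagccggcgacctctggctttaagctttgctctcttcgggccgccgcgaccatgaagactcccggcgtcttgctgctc
Gla: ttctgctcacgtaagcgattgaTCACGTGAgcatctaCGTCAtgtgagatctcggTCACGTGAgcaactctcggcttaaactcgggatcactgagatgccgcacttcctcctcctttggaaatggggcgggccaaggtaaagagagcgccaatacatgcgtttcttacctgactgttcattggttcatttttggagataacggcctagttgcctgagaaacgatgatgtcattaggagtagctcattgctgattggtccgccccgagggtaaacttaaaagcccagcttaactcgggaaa
Gusb: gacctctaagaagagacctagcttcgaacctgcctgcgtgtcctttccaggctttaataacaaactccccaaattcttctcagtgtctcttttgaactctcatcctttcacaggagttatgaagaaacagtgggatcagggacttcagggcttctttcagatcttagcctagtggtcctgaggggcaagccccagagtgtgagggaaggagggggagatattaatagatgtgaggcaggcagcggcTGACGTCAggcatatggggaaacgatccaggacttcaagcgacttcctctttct
Ctsa: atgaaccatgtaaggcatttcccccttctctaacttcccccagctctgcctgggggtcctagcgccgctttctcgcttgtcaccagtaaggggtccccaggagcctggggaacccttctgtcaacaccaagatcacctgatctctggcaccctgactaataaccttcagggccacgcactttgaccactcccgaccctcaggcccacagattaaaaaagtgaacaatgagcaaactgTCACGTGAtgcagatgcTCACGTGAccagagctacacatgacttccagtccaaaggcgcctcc
Lamp1: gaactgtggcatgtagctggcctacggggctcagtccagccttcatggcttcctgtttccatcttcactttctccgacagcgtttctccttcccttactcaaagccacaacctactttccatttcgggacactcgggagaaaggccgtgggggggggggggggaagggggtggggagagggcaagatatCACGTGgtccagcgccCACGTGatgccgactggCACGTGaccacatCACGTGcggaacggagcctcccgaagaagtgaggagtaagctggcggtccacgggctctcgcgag
In Ctsd the TCACGTGA match begins 99 bases before the start, and in Gla the 2 matches begin 228 and 195 bases before it. Counted from the annotated start within the printed window, the first TCACGTGA match of Ctsa begins 13 bases before it and the other begins after it. Ctsa has another window, at chr2:164832622-164832921, which covers the gene start at 164832873 and holds none of these motifs. The CACGTG matches of Lamp1 begin 61, 45, 28 and 15 bases before the start. The TGACGTCA match of Gusb begins 4 bases before it.

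Searched on both strands, CACGTG occurred in 13 of the 41 windows (31.7%), against 7.15% of all 32851 windows of the same length. TCACGTGA occurred in 6 windows (14.6%), those of Ctsa, Ctsd, Mcoln1, Atp6v0d1, Atp6v1a and Gla, against 0.974% of all windows. TGACGTCA was found in the windows of Gusb, Mitf and Atg5, which is 7.32% against 1.79%. TGACG occurred in 26.8% of the windows against 20.8% of all. Members were chosen as lysosomal genes, of which some are known CLEAR genes, so the shares are a description. A match is not a measured binding site, and a window without these letters says only that.

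Per kilobase, Sqstm1 was the highest of the 41 genes in all 4 groups, at 1098, 1486, 3414 and 1660 CPM per kilobase in WT vehicle, WT 666-15, ADPKD vehicle and ADPKD 666-15. The genes next in order in WT vehicle were the protease gene Lgmn at 500.2, Gabarapl1 at 473, Psap at 403 and Lamp1 at 368 CPM per kilobase. In ADPKD vehicle the order after Sqstm1 was Ctsd at 942, Psap at 253, Lamp1 at 191.1 and Ctsl at 190.7 CPM per kilobase. Lamp1 and Ctsl there did not differ beyond the spread of their libraries. At the low end in WT vehicle were Ctss, at 1.83 CPM per kilobase, and Mitf, at 3.21. Summed over the 41 genes, the level was 13973 and 13948 CPM in WT vehicle, 14465 and 13992 in WT 666-15, 19019 and 17919 in ADPKD vehicle and 13166 and 13750 in ADPKD 666-15. The libraries of ADPKD vehicle stood above the other 6. From WT vehicle to ADPKD vehicle, the rise of Sqstm1 alone exceeded the rise of the sum.

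**Figure D1:**
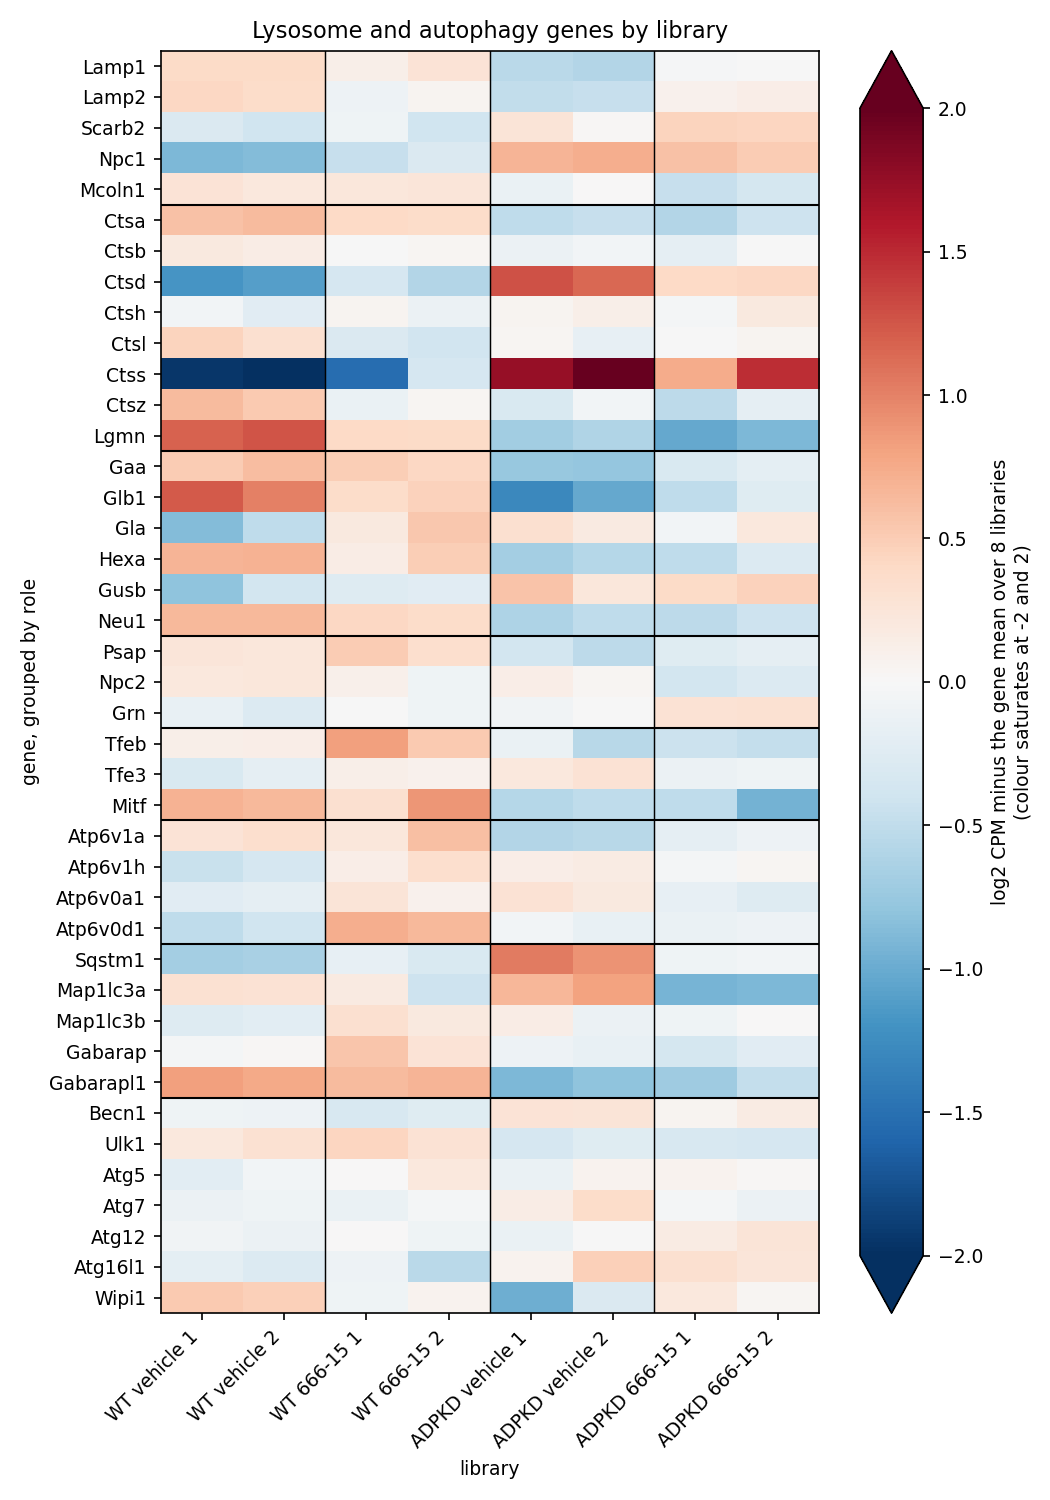
Levels of the 41 lysosome and autophagy genes (vertical axis, grouped by role) in the 8 libraries (horizontal axis), as log2 CPM minus the mean of the gene over the libraries, with colour saturating at -2 and 2. Genes of the same role differ in direction between groups: Ctsd is high and Lgmn low in both ADPKD vehicle libraries.

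In vehicle-treated mice, ADPKD and WT cells differed at 34 of the 41 genes: 15 were higher in ADPKD cells and 19 lower. Of all genes tested, 56.4% passed, 28.8% as higher and 27.6% as lower, and among the 11199 genes with a mean of at least 5 CPM 66.8% passed. The libraries of both groups did not overlap at 39 of the 41 genes and at 80.0% of all genes tested. The median log2 fold change of the 41 genes was -0.12 (-0.20 with the 2 groups fitted alone), against 0.05 over all genes tested. The largest rises were those of Ctss, Ctsd, Sqstm1 and Npc1, and the largest falls those of Glb1, Lgmn and Gabarapl1. Of the calls, 9 of 15 higher and 16 of 19 lower ones held in each of 17 alternative settings.

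Of the 5 lysosomal membrane genes, 2 rose and 3 fell in ADPKD cells given vehicle. Lamp1 encodes one of the most abundant proteins of the lysosomal membrane. Its level was 823 and 818 CPM in WT vehicle, 681 and 758 in WT 666-15, 434 and 418 in ADPKD vehicle and 619.6 and 628 in ADPKD 666-15. Both ADPKD vehicle libraries lay below all others, with a log2 fold change from WT of -0.95 ± 0.09 (edgeR adjusted p = 1.55e-06). Lamp2, its relative, which also serves chaperone-mediated autophagy, was at 854 and 819 CPM in WT vehicle, 594 and 662 in WT 666-15, 453 and 463 in ADPKD vehicle and 677 and 702 in ADPKD 666-15. The ADPKD vehicle libraries were again the lowest pair, at -0.87 ± 0.09 (edgeR adjusted p = 3.65e-06). Npc1, which exports cholesterol from the lysosome, went the other way, at 74 and 75.5 CPM in WT vehicle, 100.2 and 113 in WT 666-15, 219 and 228 in ADPKD vehicle and 205 and 196 in ADPKD 666-15. All ADPKD libraries were higher than all WT libraries, and the difference with vehicle was 1.58 ± 0.10 (edgeR adjusted p = 2.68e-08). Scarb2, the receptor that carries beta-glucocerebrosidase to the lysosome, rose by 0.49 ± 0.12 (edgeR adjusted p = 0.00424), from 68.9 and 63.8 to 101 and 85.4 CPM. Mcoln1, a calcium channel of the lysosomal membrane, fell by 0.30 (edgeR adjusted p = 0.0445), from 44.7 and 42.8 to 33.8 and 37.1 CPM. The Scarb2 call ended without WT vehicle replicate 2 or ADPKD vehicle replicate 1 (0.36 to 0.41, adjusted p 0.0553 to 0.0561), and the Mcoln1 call without WT vehicle replicate 1, WT vehicle replicate 2, ADPKD vehicle replicate 1, ADPKD 666-15 replicate 1 or ADPKD 666-15 replicate 2 (-0.36 to -0.25, adjusted p 0.0531 to 0.191). Exons of Npc1 overlap those of Rmc1 on the other strand over 511 bases, and strand use in the counting is not given in the sources used here.

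Proteases held both the largest rise and one of the largest falls. Of the 8 genes, 2 rose and 5 fell, with a median log2 fold change of -0.35. Ctsd encodes cathepsin D, an aspartic protease, and lies at chromosome 7, 142375911 to 142388038 on GRCm38. Its level was 381 and 402 CPM in WT vehicle, 683 and 575 in WT 666-15, 2083 and 1926 in ADPKD vehicle and 1136 and 1151 in ADPKD 666-15. The groups did not overlap, and ADPKD vehicle stood highest, at 2.36 ± 0.11 (edgeR adjusted p = 1.55e-09) relative to WT. The Ctsd exons share 808 bases with Gm49369, an overlapping gene model on the same strand, so its count is uncertain to that extent. Ctss encodes cathepsin S, a cysteine protease known from antigen-presenting cells. It was at 2.84 and 2.13 CPM in WT vehicle, 3.78 and 8.6 in WT 666-15, 36.5 and 49.6 in ADPKD vehicle and 18.3 and 30.3 in ADPKD 666-15. Both pairs of ADPKD libraries lay above all WT libraries, and the fold change with vehicle was 4.10 ± 0.44 (edgeR adjusted p = 0.000107). Macrophage markers, of which 13 of 17 rose and 1 fell in the same comparison, made up 0.0101% to 0.0135% of counts in WT vehicle and 0.0301% to 0.0351% in ADPKD vehicle. None of those 17 markers was at 0 in any library, and their part in the levels of Ctss, Ctsd and the other members was not tested.

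Lgmn, which encodes legumain, an asparaginyl endopeptidase that matures cathepsins, fell in ADPKD cells. Its level was 966 and 1024 CPM in WT vehicle, 564 and 555 in WT 666-15, 263 and 279.8 in ADPKD vehicle and 209 and 229.9 in ADPKD 666-15. Each group lay apart from the others, with WT vehicle the highest and ADPKD 666-15 the lowest, and the difference with vehicle was -1.88 ± 0.10 (edgeR adjusted p = 4.36e-09). Ctsa, a carboxypeptidase that also protects Glb1 and Neu1 proteins in a complex, was at 257 and 266 CPM in WT vehicle, 227 and 221 in WT 666-15, 120.5 and 125 in ADPKD vehicle and 114 and 129.6 in ADPKD 666-15. It fell by 1.09 (edgeR adjusted p = 6.7e-07), and all ADPKD libraries were below all WT libraries. The cysteine cathepsins Ctsz and Ctsl fell by 0.75 (edgeR adjusted p = 0.000332) and 0.45 (edgeR adjusted p = 0.00172). Ctsb, another cysteine cathepsin, was at 1006 and 976 CPM in WT and 809.5 and 845 in ADPKD cells, a log2 fold change of -0.26 ± 0.09 (edgeR adjusted p = 0.0276). Its call ended without WT vehicle replicate 1, WT vehicle replicate 2 or ADPKD vehicle replicate 1 (-0.30 to -0.24, adjusted p 0.0641 to 0.117). Ctsh, an aminopeptidase, had 0.22 ± 0.11 (edgeR adjusted p = 0.102) and did not pass. Ctsl overlaps the antisense gene Gm47123 over 1742 bases of exon.

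Among the 6 glycosidases, 4 fell and 2 rose, with a median log2 fold change of -1.26. Glb1, the lysosomal beta-galactosidase, lies at chromosome 9, 114401076 to 114474898, and was at 107 and 92 CPM in WT vehicle, 58.9 and 63.2 in WT 666-15, 18.8 and 22.5 in ADPKD vehicle and 32.3 and 39 in ADPKD 666-15. WT vehicle was highest and ADPKD vehicle lowest without overlap, and the fall was -2.27 ± 0.14 (edgeR adjusted p = 2.87e-08). Gaa, which digests glycogen in the lysosome, was at 111 and 119 CPM in WT and 46 and 45.4 in ADPKD cells, at -1.33 ± 0.10 (edgeR adjusted p = 1.97e-07). Hexa, which encodes a glycosidase subunit for ganglioside breakdown, and Neu1, a sialidase, fell by 1.31 (edgeR adjusted p = 3.28e-06) and 1.21 (edgeR adjusted p = 2.45e-07). The other direction was seen for Gla, the alpha-galactosidase, at 46.5 and 59.8 CPM in WT vehicle, 96.6 and 123 in WT 666-15, 106 and 95.9 in ADPKD vehicle and 81.5 and 97.9 in ADPKD 666-15. Its level was lowest in WT vehicle, and the rise in ADPKD cells with vehicle was 0.92 ± 0.15 (edgeR adjusted p = 0.000268). Gusb, beta-glucuronidase, rose from 20.1 and 27.1 to 52.1 and 40.7 CPM, at 0.98 ± 0.16 (edgeR adjusted p = 0.000202). In the same comparison all 18 proximal tubule markers fell, with Slc5a2 and Slc7a13 at 0 in ADPKD vehicle replicate 1, and 7 of 8 thick ascending limb markers fell. The part of these markers in the lower glycosidases was not tested.

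Of the 3 activators and other soluble proteins, 1 fell and 2 did not pass. Psap, the precursor of the saposins that help degrade sphingolipids, was at 1077 and 1066 CPM in WT vehicle, 1290.2 and 1153 in WT 666-15, 708 and 634 in ADPKD vehicle and 769.8 and 806 in ADPKD 666-15. Both ADPKD groups lay below both WT groups, and with vehicle it fell by 0.67 (edgeR adjusted p = 5.63e-05). Npc2, which hands cholesterol to NPC1, had -0.13 ± 0.10 (edgeR adjusted p = 0.281), and Grn, progranulin, had 0.18 ± 0.09 (edgeR adjusted p = 0.125). Neither passed.

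**Figure D2:**
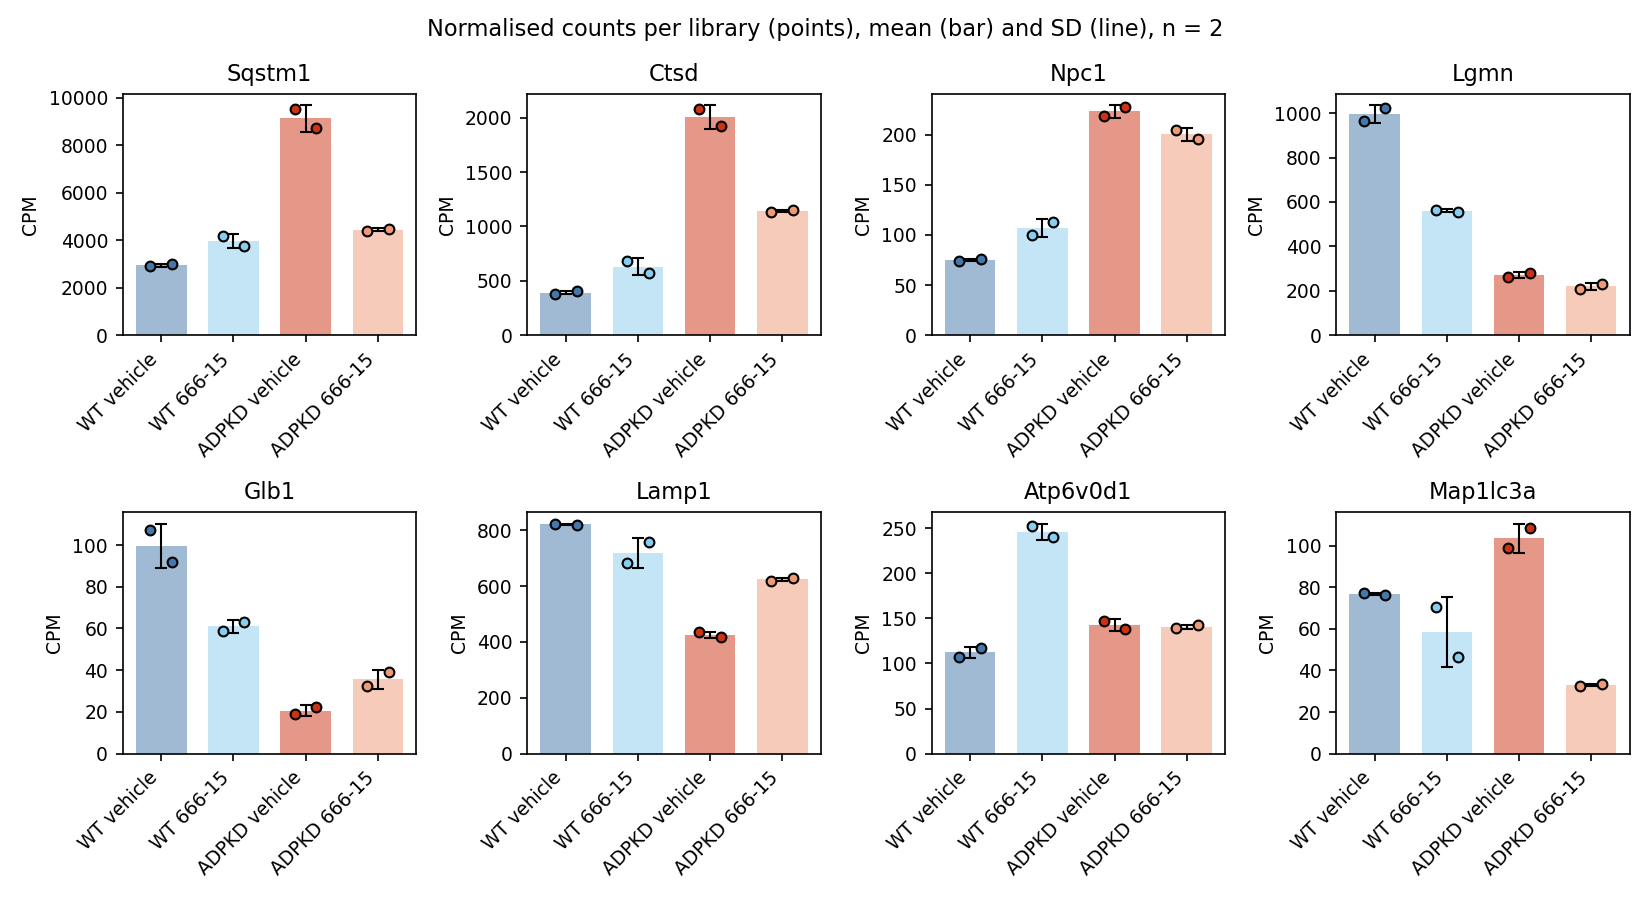
CPM of 8 members in each library (vertical axis, linear from 0) by group (horizontal axis), with points for libraries, bars for means and lines for SD, n = 2 each. Sqstm1 reaches 9523 CPM in ADPKD vehicle against 2976 at most in WT vehicle, and Atp6v0d1 is highest in WT 666-15.

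All 3 MiT/TFE factor genes passed, in different directions. Tfeb, at 28.7 and 29.2 CPM in WT vehicle, 46.8 and 38.2 in WT 666-15, 24.3 and 18 in ADPKD vehicle and 19.6 and 19.1 in ADPKD 666-15, fell by 0.45 (edgeR adjusted p = 0.0307) between vehicle groups. Its libraries were highest in WT 666-15, and those of both ADPKD groups lay below those of both WT groups. The Tfeb call ended without WT vehicle replicate 1, WT vehicle replicate 2 or ADPKD vehicle replicate 2 (-0.49 to -0.27, adjusted p 0.081 to 0.207), and with a GC trend removed from each library the value was -0.88 (adjusted p = 0.000137). Mitf was at 15.9 and 15.5 CPM in WT vehicle, 12.3 and 18 in WT 666-15, 6.59 and 6.89 in ADPKD vehicle and 6.9 and 5.09 in ADPKD 666-15, lower in all ADPKD than in all WT libraries, and fell by 1.22 (edgeR adjusted p = 0.00053). Tfe3 was at 85.2 and 93 CPM in WT vehicle, 114 and 112 in WT 666-15, 123 and 129 in ADPKD vehicle and 97.2 and 99.1 in ADPKD 666-15. It rose by 0.50 ± 0.10 (edgeR adjusted p = 0.000636), with ADPKD vehicle above the other groups.

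Of the 4 V-ATPase subunit genes, the one for the catalytic subunit A, Atp6v1a, fell and the other 3 rose. Atp6v1a was at 535 and 561 CPM in WT vehicle, 516 and 671 in WT 666-15, 294 and 302 in ADPKD vehicle and 389.8 and 411 in ADPKD 666-15. All ADPKD libraries were lower than all WT libraries, and the difference with vehicle was -0.88 ± 0.12 (edgeR adjusted p = 2.81e-05). Atp6v1h, a regulatory subunit of the cytosolic V1 part, rose by 0.54 ± 0.10 (edgeR adjusted p = 0.000424). Atp6v0a1 and Atp6v0d1, subunits of the membrane V0 part, rose by 0.45 ± 0.10 (edgeR adjusted p = 0.00227) and 0.35 ± 0.09 (edgeR adjusted p = 0.00667). The Atp6v0d1 call ended without WT vehicle replicate 1 or ADPKD vehicle replicate 1 (0.27 to 0.29, adjusted p 0.0602 to 0.116). Intercalated cells of the collecting duct use V-ATPases for acid secretion, and their 12 markers, of which 10 fell and 1 rose, made up 0.0781% to 0.0839% of counts in WT vehicle and 0.0205% to 0.024% in ADPKD vehicle. Hmx2 was at 0 in ADPKD vehicle replicate 2. Among these markers, 2 encode V-ATPase subunits themselves and are also counted with the other V-ATPase subunits below. The part of these cells in the lower Atp6v1a was not tested.

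Of the ATG8 family and p62, 2 genes rose and 1 fell. Sqstm1 lies at chromosome 11, 50199366 to 50210827, and was at 2895 and 2976 CPM in WT vehicle, 4173 and 3770.4 in WT 666-15, 9523 and 8727 in ADPKD vehicle and 4388 and 4488 in ADPKD 666-15. Both ADPKD vehicle libraries were above the other 6, and the difference from WT vehicle was 1.64 ± 0.09 (edgeR adjusted p = 1.43e-08). Sqstm1 exons overlap those of Mrnip on the other strand over 580 bases. Gabarapl1, an ATG8 protein of the GABARAP family, was at 878 and 843 CPM in WT vehicle, 769.6 and 793 in WT 666-15, 266 and 283 in ADPKD vehicle and 304 and 355 in ADPKD 666-15. All ADPKD libraries were far below all WT libraries, at -1.65 ± 0.10 (edgeR adjusted p = 2.2e-08). It overlaps 1700101I11Rik on the other strand over 570 bases. Map1lc3a, an LC3 protein, was at 77.2 and 76.3 CPM in WT vehicle, 70.3 and 46.5 in WT 666-15, 98.7 and 109 in ADPKD vehicle and 32.7 and 33.4 in ADPKD 666-15. With vehicle it rose by 0.43 ± 0.16 (edgeR adjusted p = 0.0332), and the call ended without WT vehicle replicate 1, WT vehicle replicate 2, ADPKD vehicle replicate 1, ADPKD vehicle replicate 2, ADPKD 666-15 replicate 1 or ADPKD 666-15 replicate 2 (0.34 to 0.49, adjusted p 0.0552 to 0.169) as well as after removal of the GC trend, at 0.02 (adjusted p = 0.896). Map1lc3b, the LC3 protein most used as an autophagosome marker, had 0.26 ± 0.10 (edgeR adjusted p = 0.0509), and Gabarap had -0.12 ± 0.11 (edgeR adjusted p = 0.35). Neither passed, but Map1lc3b was called higher in some alternatives. Among them was removal of the GC trend, without and with the replicate block (0.25 in both, edgeR adjusted p 0.0421 and 0.0469).

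Of the 7 genes that start autophagy and conjugate ATG8 proteins, 3 rose, 2 fell and 2 did not pass, with a median of 0.10. Wipi1, which binds the phosphoinositide of the forming membrane, was at 26.3 and 25.4 CPM in WT vehicle, 17.2 and 19.2 in WT 666-15, 9.29 and 14.9 in ADPKD vehicle and 21.2 and 18.6 in ADPKD 666-15. WT vehicle was highest, and ADPKD vehicle lower by -1.10 ± 0.20 (edgeR adjusted p = 0.000462). Ulk1, the initiating kinase, fell by 0.54 (edgeR adjusted p = 0.00056), from 91.6 and 98.5 to 63.2 and 67.3 CPM. Becn1, of the lipid kinase complex, rose by 0.36 ± 0.10 (edgeR adjusted p = 0.00634). Atg16l1, which directs conjugation to the membrane, and Atg7, the E1-like enzyme, rose by 0.51 ± 0.16 (edgeR adjusted p = 0.0162) and 0.36 ± 0.12 (edgeR adjusted p = 0.0262). Atg5 and Atg12, whose products are joined to each other with the help of ATG7, had 0.10 ± 0.14 and 0.02 ± 0.11 and did not pass. Calls of the rising genes ended when libraries were left out. This was so for Becn1 without WT vehicle replicate 1 or WT vehicle replicate 2 (0.34, adjusted p 0.0634 to 0.0652), for Atg16l1 without WT vehicle replicate 1, WT vehicle replicate 2 or ADPKD vehicle replicate 2 (0.28 to 0.53, adjusted p 0.0615 to 0.202) and for Atg7 without WT vehicle replicate 1, WT vehicle replicate 2, ADPKD vehicle replicate 2, ADPKD 666-15 replicate 1 or ADPKD 666-15 replicate 2 (0.22 to 0.35, adjusted p 0.0511 to 0.229). Becn1 shares 3104 exon bases with Cntd1 on the other strand, so reads of the pair cannot be told apart without strand.

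**Figure D3:**
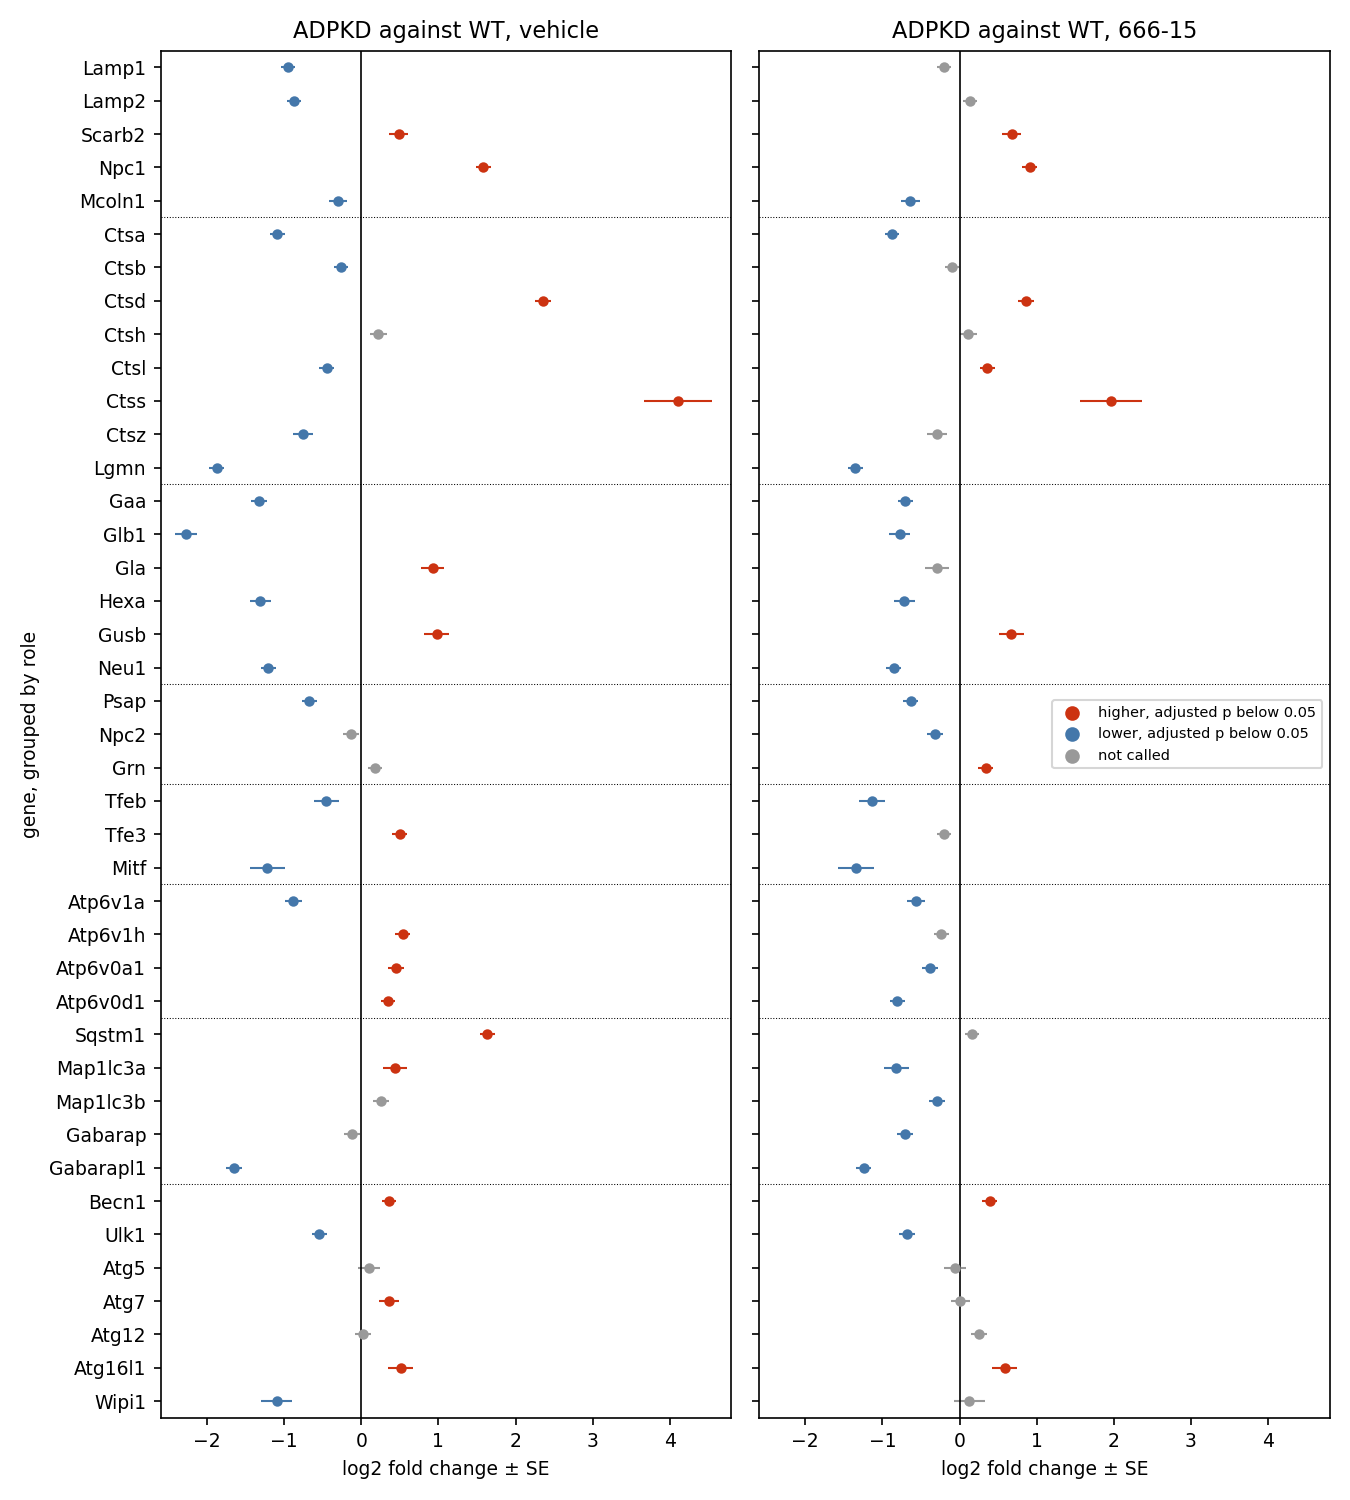
Log2 fold change ± SE (horizontal axis) of each member (vertical axis, grouped by role) for ADPKD against WT cells, with vehicle on the left and with 666-15 on the right. With vehicle 15 genes are higher and 19 lower, and with 666-15 9 are higher and 19 lower.

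Given 666-15, ADPKD cells had 9 of the 41 genes higher and 9 lower than ADPKD cells given vehicle. Over all genes tested 41.4% passed, 22.3% higher and 19.1% lower, so the share of members called was near the background. Among genes with a mean of at least 5 CPM 51.9% passed. Libraries did not overlap at 26 of the 41 genes and at 71.6% of all genes. The median of the members was -0.02, against 0.02 over all genes, and ran from -0.10 to 0.03 over the alternatives. Map1lc3a, Sqstm1 and Ctsd fell the furthest, and Glb1, Wipi1, Lamp2, Lamp1 and Gaa rose. These libraries of ADPKD vehicle also enter the comparison of genotypes above, so the values below are not independent of it. Of the calls, 3 of 9 higher and 3 of 9 lower ones held in each of 17 alternative settings. The count of higher members was 5 without ADPKD vehicle replicate 1 and 5 without ADPKD 666-15 replicate 2. That of lower members was 5 without ADPKD vehicle replicate 2, 4 without ADPKD 666-15 replicate 1 and 5 without ADPKD 666-15 replicate 2. Of the 18 proximal tubule markers 13 rose and 1 fell in this comparison, with a median log2 fold change of 1.58. All 8 endothelial markers fell, from 0.0873% to 0.108% of counts with vehicle to 0.0229% to 0.0295% with 666-15, and the part of either cell type in the members' values was not tested.

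Among membrane genes, Lamp1 and Lamp2 rose with 666-15 in ADPKD cells by 0.55 ± 0.09 (edgeR adjusted p = 0.000421) and 0.59 ± 0.09 (edgeR adjusted p = 0.000273). In both genes the ADPKD 666-15 libraries lay between ADPKD vehicle and WT vehicle. Scarb2 had 0.29 ± 0.12 (edgeR adjusted p = 0.0727) and Npc1 -0.16 ± 0.09 (edgeR adjusted p = 0.205), and neither passed. Scarb2 was called higher in 5 of the 17 alternatives. Mcoln1 fell by 0.34 (edgeR adjusted p = 0.0376), and its call ended without WT vehicle replicate 1, WT vehicle replicate 2, ADPKD vehicle replicate 1, ADPKD vehicle replicate 2, ADPKD 666-15 replicate 1 or ADPKD 666-15 replicate 2 (-0.41 to -0.26, adjusted p 0.0501 to 0.221). Across all 17252 genes with a known GC content, the log2 fold change of this comparison had a Spearman correlation of -0.354 with GC content. Genes share the 4 libraries, so this is a description. With the trend removed from each library, Lamp2, whose transcript has a GC content of 38.7%, was at 0.19 (adjusted p = 0.0981) and no longer passed, whereas Npc1 passed, at -0.35 (adjusted p = 0.00655).

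Ctsd fell with 666-15 in ADPKD cells by 0.81 (edgeR adjusted p = 5.97e-05), to a level still above both WT groups. With the GC trend removed its value was -0.51 (adjusted p = 0.00062). Lgmn fell by 0.31 (edgeR adjusted p = 0.0182), a call that ended without ADPKD vehicle replicate 2 or ADPKD 666-15 replicate 1 (-0.24 to -0.22, adjusted p 0.127 to 0.182) as well as after removal of the GC trend, at -0.19 (adjusted p = 0.107). The other 6 proteases did not pass, among them Ctss at -0.83 ± 0.36 (edgeR adjusted p = 0.107). Ctss was called lower in 7 of the 17 alternatives, DESeq2 included. Among the glycosidases, Glb1 rose by 0.79 ± 0.14 (edgeR adjusted p = 0.000751) and Gaa by 0.52 ± 0.10 (edgeR adjusted p = 0.00149). Both remained below their WT vehicle levels. With the GC trend removed the value of Gaa was 1.03 (adjusted p = 1.09e-05). Gla, Hexa, Gusb and Neu1 had values from -0.17 to 0.24 and did not pass. Without the GC trend Hexa passed, at 0.49 (adjusted p = 0.0195), and so did Neu1, at 0.27 (adjusted p = 0.0284). Of the soluble proteins, Grn rose by 0.33 ± 0.09 (edgeR adjusted p = 0.0119) and Npc2 fell by 0.40 (edgeR adjusted p = 0.00662). The Grn call ended without ADPKD vehicle replicate 1, ADPKD 666-15 replicate 1 or ADPKD 666-15 replicate 2 (0.31 to 0.36, adjusted p 0.0512 to 0.0758), and the Npc2 call without ADPKD vehicle replicate 1 or ADPKD 666-15 replicate 1 (-0.35 to -0.34, adjusted p 0.0535 to 0.0827). Removal of the GC trend put Grn at 0.64 (adjusted p = 0.000143), and Psap, otherwise at 0.23, passed at 0.47 (adjusted p = 0.00107).

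Of the MiT/TFE factors, Tfe3 fell by 0.36 (edgeR adjusted p = 0.00942). The call ended without ADPKD vehicle replicate 2, ADPKD 666-15 replicate 1 or ADPKD 666-15 replicate 2 (-0.36 to -0.30, adjusted p 0.0623 to 0.0843) as well as after removal of the GC trend, at -0.22 (adjusted p = 0.064). Tfeb, whose transcript has the highest GC content of the 41 genes at 63.2%, had -0.13 ± 0.17 (edgeR adjusted p = 0.568), but 0.68 (adjusted p = 0.00236) with the GC trend removed, which is the opposite direction. Of the V-ATPase genes, Atp6v1a rose by 0.43 ± 0.12 (edgeR adjusted p = 0.0103) and Atp6v0a1 fell by 0.46 (edgeR adjusted p = 0.00357). The Atp6v1a call ended without ADPKD vehicle replicate 1 or ADPKD 666-15 replicate 2 (0.40 to 0.41, adjusted p 0.0506 to 0.0684) as well as after removal of the GC trend, at 0.18 (adjusted p = 0.182). The Atp6v0a1 call ended without ADPKD 666-15 replicate 2 (-0.40, adjusted p = 0.052). Atp6v0d1 had -0.02 ± 0.09 and Atp6v1h -0.15 ± 0.10. Without the GC trend Atp6v1h passed as lower, at -0.57 (adjusted p = 0.000269). Intercalated cell markers, of which 8 of 12 rose in this comparison, made up 0.053% to 0.0611% of counts in ADPKD 666-15. Their part in the V-ATPase values was not tested.

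Sqstm1 fell with 666-15 in ADPKD cells by 1.04 (edgeR adjusted p = 5.96e-06). Both treated libraries, at 4388 and 4488 CPM, were below both vehicle libraries, at 9523 and 8727, and above those of WT vehicle. Map1lc3a fell further, by 1.65 (edgeR adjusted p = 1.8e-05), to the lowest level of the 4 groups. Its transcript has a GC content of 63.1%, and with the trend removed the value was -0.85 (adjusted p = 0.000242). Gabarapl1 rose by 0.27 ± 0.10 (edgeR adjusted p = 0.045), a call that ended without WT vehicle replicate 1, WT vehicle replicate 2, ADPKD vehicle replicate 1, ADPKD vehicle replicate 2 or ADPKD 666-15 replicate 2 (0.16 to 0.33, adjusted p 0.0605 to 0.324). Map1lc3b and Gabarap had -0.06 ± 0.10 and -0.16 ± 0.11 and did not pass. Among the initiation and conjugation genes, Wipi1 rose by 0.72 ± 0.20 (edgeR adjusted p = 0.0133), Atg12 rose by 0.28 ± 0.11 (edgeR adjusted p = 0.0464) and Atg7 fell by 0.33 (edgeR adjusted p = 0.0494). The Wipi1 call ended without ADPKD vehicle replicate 1 or ADPKD 666-15 replicate 1 (0.42 to 0.64, adjusted p 0.0983 to 0.113), and 0.72 became 1.11 without ADPKD vehicle replicate 2. The Atg12 call ended without WT vehicle replicate 1, WT vehicle replicate 2, ADPKD vehicle replicate 1, ADPKD vehicle replicate 2, ADPKD 666-15 replicate 1 or ADPKD 666-15 replicate 2 (0.23 to 0.36, adjusted p 0.0524 to 0.216), and the Atg7 call without WT vehicle replicate 1, WT vehicle replicate 2, WT 666-15 replicate 2, ADPKD vehicle replicate 2, ADPKD 666-15 replicate 1 or ADPKD 666-15 replicate 2 (-0.35 to -0.20, adjusted p 0.0508 to 0.315). Without the GC trend Atg12 was at 0.03 (adjusted p = 0.866) and Atg7 at -0.16 (adjusted p = 0.337). Of the 17 alternatives, 7 kept the call of Gabarapl1, 3 that of Atg12 and 5 that of Atg7. Ulk1 had -0.04 ± 0.10, and 0.36 (adjusted p = 0.00933) with the GC trend removed, so its direction turned with that setting. Becn1, at -0.16, passed as lower with it, at -0.38 (adjusted p = 0.00488).

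**Figure D4:**
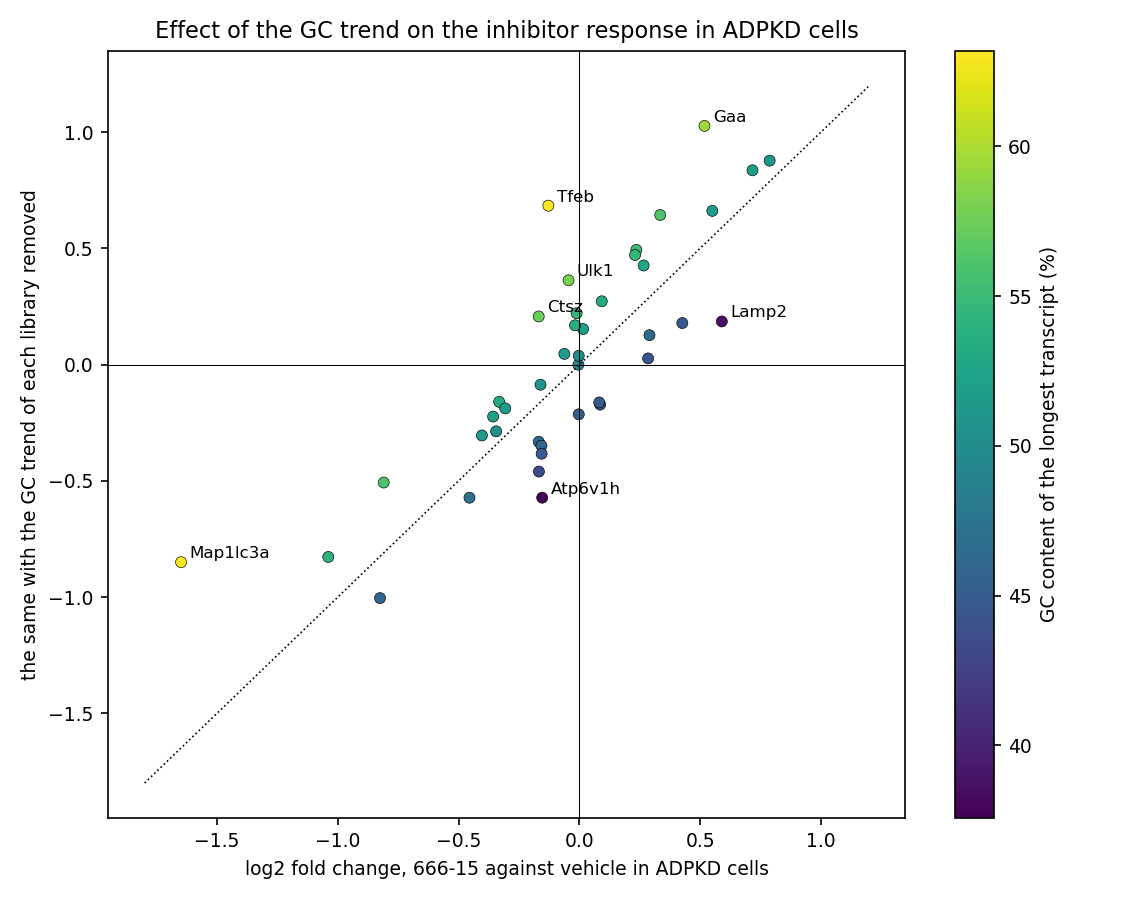
Log2 fold change of each member for 666-15 against vehicle in ADPKD cells (horizontal axis) and the same after removing a GC trend from each library (vertical axis), coloured by the GC content of the longest transcript in percent. Members on the dotted line have equal values in both, and Tfeb moves from -0.13 to 0.68 and Lamp2 from 0.59 to 0.19.

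In WT cells 666-15 changed 16 of the 41 genes, 11 upward and 5 downward. Over all genes tested 25.5% passed, 13.9% higher and 11.6% lower, and among genes with a mean of at least 5 CPM 34.8% passed. Libraries did not overlap at 32 of the 41 genes and at 64.1% of all genes. The medians were 0.06 for the members and -0.01 for all genes. The median of the members was -0.01 with RLE scaling, -0.05 with the filter on 5 CPM and -0.01 with the GC trend removed, so its sign depended on the scaling. The genes that rose most were Atp6v0d1, Gla and Ctsd, and those that fell most were Lgmn, Ctsl and Glb1. Without WT 666-15 replicate 2, the library with Xist counts, 11 members were higher and 6 lower. Higher and lower members numbered 11 and 9 with RLE scaling, 9 and 14 when genes had to reach 5 CPM in 2 libraries, 11 and 10 with the GC trend removed and 10 and 8 with DESeq2. The count of higher members was 7 without either of the WT vehicle libraries. RLE scaling placed the median of all genes at -0.07, and the stricter filter placed it at -0.10.

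Of the 4 V-ATPase genes 3 rose in edgeR, and 2 did in DESeq2. Atp6v0d1 rose by 1.13 ± 0.09 (edgeR adjusted p = 3.3e-06), and both WT 666-15 libraries lay above the other 6. Atp6v1h rose by 0.62 ± 0.10 (edgeR adjusted p = 0.000475) and Atp6v0a1 by 0.38 ± 0.10 (edgeR adjusted p = 0.0159). The Atp6v0a1 call ended without WT vehicle replicate 1, WT vehicle replicate 2 or WT 666-15 replicate 1 (0.29 to 0.40, adjusted p 0.081 to 0.141). Atp6v1a had 0.11 ± 0.11 (edgeR adjusted p = 0.511) with overlapping libraries. Intercalated cell markers made up 0.189% to 0.232% of counts in WT 666-15, and 7 of 12 rose. Principal cell markers were at 0.602% to 0.609% in WT 666-15, against 0.109% to 0.148% in WT vehicle, and all 9 tested ones rose. The part of a changed mix of cells in the V-ATPase values was not tested.

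Among membrane genes in WT cells, Npc1 rose by 0.51 ± 0.10 (edgeR adjusted p = 0.00174) and Lamp2 fell by 0.41 (edgeR adjusted p = 0.00467). The Lamp2 call ended without WT vehicle replicate 1 (-0.39, adjusted p = 0.0549). Ctsd rose by 0.68 ± 0.10 (edgeR adjusted p = 0.000299), while Lgmn fell by 0.83 (edgeR adjusted p = 3.23e-05), Ctsl by 0.72 (edgeR adjusted p = 0.000154) and Ctsz by 0.63 (edgeR adjusted p = 0.0036). Ctss had 1.31 ± 0.47 (edgeR adjusted p = 0.0807), with 3.78 and 8.6 CPM in the treated libraries, and was called higher in 6 of the 17 alternatives. Gla rose by 1.05 ± 0.15 (edgeR adjusted p = 0.000373) and Glb1 fell by 0.71 (edgeR adjusted p = 0.00173). Hexa, at -0.36 ± 0.13 (edgeR adjusted p = 0.0699), and Neu1, at -0.26 ± 0.09 (edgeR adjusted p = 0.0595), did not pass, but were called lower in 7 and 5 of the 17 alternatives. Proximal tubule markers fell in WT cells with 666-15 at 13 of 18 genes, and their part in the falling hydrolases was not tested. In the main edgeR fit 0 of the 3 soluble proteins passed, 0 had an unadjusted p below 0.05 and DESeq2 called 0, with log2 fold changes from -0.22 to 0.19. Npc2 was called lower with the filter of 5 CPM in 2 libraries, at -0.32 (edgeR adjusted p = 0.0235). It was also called lower with the GC trend removed, at -0.27 (edgeR adjusted p = 0.0469).

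Tfeb and Tfe3 rose in WT cells with 666-15, by 0.56 ± 0.16 (edgeR adjusted p = 0.0227) and 0.34 ± 0.10 (edgeR adjusted p = 0.019). The Tfeb call ended without WT vehicle replicate 1, WT vehicle replicate 2 or WT 666-15 replicate 1 (0.40 to 0.56, adjusted p 0.101 to 0.133), and the Tfe3 call without WT vehicle replicate 1 or WT vehicle replicate 2 (0.28 to 0.40, adjusted p 0.0615 to 0.225). Mitf had -0.05 ± 0.22 and did not pass. Sqstm1 rose by 0.44 ± 0.09 (edgeR adjusted p = 0.00377), the opposite of its change in ADPKD cells. Map1lc3b and Gabarap rose too, by 0.49 ± 0.10 (edgeR adjusted p = 0.00369) and 0.43 ± 0.11 (edgeR adjusted p = 0.0099), and the Gabarap call ended without WT vehicle replicate 1, WT vehicle replicate 2 or WT 666-15 replicate 1 (0.28 to 0.45, adjusted p 0.0505 to 0.101). Map1lc3a had -0.40 ± 0.16 (edgeR adjusted p = 0.0915), and was called lower in 7 of the 17 alternatives. In the main edgeR fit 0 of the 7 initiation and conjugation genes passed, 1 had an unadjusted p below 0.05 and DESeq2 called 0. Their values ran from -0.51 for Wipi1 to 0.24 for Atg5. Wipi1 was called lower in some alternatives. Among them were no filter on low counts, the filter of 5 CPM in 2 libraries and the 2 groups alone (-0.61 to -0.51, edgeR adjusted p 0.0353 to 0.038). Becn1 was called lower with the filter of 5 CPM in 2 libraries, at -0.29 (edgeR adjusted p = 0.0324).

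The response to 666-15 differed between genotypes at 22 of the 41 genes by the interaction term, which subtracts the log2 fold change in WT cells from that in ADPKD cells. It was above 0 for 9 genes and below 0 for 13, and with the GC trend removed above 0 for 13 and below 0 for 10. Across genes the interaction had a Spearman correlation of -0.337 with GC content. Over all genes tested 26.6% passed, 13.6% above 0 and 13.0% below, and among genes with a mean of at least 5 CPM 35.8% passed. The median was -0.11 for the members and -0.02 for all genes. For the members it was -0.01 with the GC trend removed and 0.02 without ADPKD 666-15 replicate 1. Of the 41 genes, 15 had a positive value in WT cells and a negative one in ADPKD cells, 9 had the reverse and 17 had the same sign in both. With the GC trend removed the sign turned at 9 of the 41 genes in ADPKD cells and at 2 in WT cells. Neither this split nor the correlations that follow were computed over all genes tested, so they have no background to be read against. Across the members the responses of WT and ADPKD cells had a Pearson correlation of -0.319 and a Spearman correlation of -0.354. These 2 responses share no library, but genes are not independent points.

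An interaction below 0 means that the change in ADPKD cells lay below that in WT cells. Sqstm1 had -1.48 ± 0.13 (edgeR adjusted p = 1.28e-05): it went from 2895 and 2976 to 4173 and 3770.4 CPM in WT cells and from 9523 and 8727 to 4388 and 4488 in ADPKD cells. Ctsd had -1.49 ± 0.14 (edgeR adjusted p = 1.99e-05), Gla -1.22 ± 0.21 (edgeR adjusted p = 0.00171) and Atp6v0d1 -1.15 ± 0.13 (edgeR adjusted p = 6.78e-05). Atp6v0a1, Atp6v1h, Tfe3 and Npc1 had values of -0.84, -0.77, -0.70 and -0.67. Map1lc3a had -1.25 ± 0.23 (edgeR adjusted p = 0.00193), which removal of the GC trend moved to -0.44 (adjusted p = 0.089). That setting moved Atp6v1h to -1.18 (adjusted p = 4.21e-05) and Tfeb, otherwise at -0.68, to 0.13 (adjusted p = 0.693), the opposite direction. All 4 ATG8 genes and Sqstm1 passed, with Gabarapl1 alone above 0 at 0.40 ± 0.14 (edgeR adjusted p = 0.0466). Its call ended without WT vehicle replicate 1, WT vehicle replicate 2, WT 666-15 replicate 1, ADPKD vehicle replicate 1, ADPKD vehicle replicate 2 or ADPKD 666-15 replicate 2 (0.30 to 0.47, adjusted p 0.0511 to 0.185). Calls of other genes below 0 ended when libraries were left out. These were Gabarap without WT vehicle replicate 1 or ADPKD 666-15 replicate 1 (-0.54 to -0.51, adjusted p 0.0642 to 0.075), Map1lc3b without WT vehicle replicate 1, WT vehicle replicate 2, ADPKD vehicle replicate 1 or ADPKD 666-15 replicate 1 (-0.55 to -0.41, adjusted p 0.0528 to 0.079), Tfeb without WT vehicle replicate 1, WT vehicle replicate 2, WT 666-15 replicate 1, ADPKD vehicle replicate 1, ADPKD 666-15 replicate 1 or ADPKD 666-15 replicate 2 (-0.68 to -0.44, adjusted p 0.116 to 0.192) and Ctss without WT vehicle replicate 1, WT vehicle replicate 2, WT 666-15 replicate 2, ADPKD vehicle replicate 1, ADPKD vehicle replicate 2 or ADPKD 666-15 replicate 1 (-2.35 to -1.40, adjusted p 0.0534 to 0.147).

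Above 0, the change in ADPKD cells lay above that in WT cells. Glb1 had 1.49 ± 0.19 (edgeR adjusted p = 0.00016), from 107 and 92 to 58.9 and 63.2 CPM in WT cells and from 18.8 and 22.5 to 32.3 and 39 in ADPKD cells. Wipi1 had 1.22 ± 0.28 (edgeR adjusted p = 0.00717), Lamp2 1.004 ± 0.13 (edgeR adjusted p = 0.000148), Lamp1 0.74 ± 0.13 (edgeR adjusted p = 0.00115) and Ctsl 0.81 ± 0.14 (edgeR adjusted p = 0.00112). Gaa, Hexa and Lgmn had 0.63, 0.59 and 0.52. The Hexa call ended without WT vehicle replicate 1, WT vehicle replicate 2, WT 666-15 replicate 1, ADPKD vehicle replicate 1 or ADPKD 666-15 replicate 2 (0.45 to 0.61, adjusted p 0.0892 to 0.157), and the Lgmn call without ADPKD 666-15 replicate 2 (0.47, adjusted p = 0.051). With the GC trend removed the value of Lamp2 was 0.62 (adjusted p = 0.00238), that of Gaa 1.19 (adjusted p = 8.78e-05) and that of Hexa 0.91 (adjusted p = 0.00709). Genes that passed as above 0 with that setting were Ctsz at 0.90 (adjusted p = 0.00896), Neu1 at 0.58 (adjusted p = 0.00498), Grn at 0.54 (adjusted p = 0.00797) and Ctsa at 0.51 (adjusted p = 0.0118). Ctsz also passed with no filter on low counts, at 0.49 (edgeR adjusted p = 0.0355). Neu1 also passed with RLE scaling and with the filter of 5 CPM in 2 libraries (0.40 and 0.37, edgeR adjusted p 0.038 and 0.0373). Atp6v1a, at 0.31 (edgeR adjusted p = 0.182) in the main fit, was at 0.54 without WT 666-15 replicate 2. Of the 18 proximal tubule markers 14 had an interaction above 0, and 9 of 17 macrophage markers were below 0 and 1 above. Their part in these values was not tested.

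**Figure D5:**
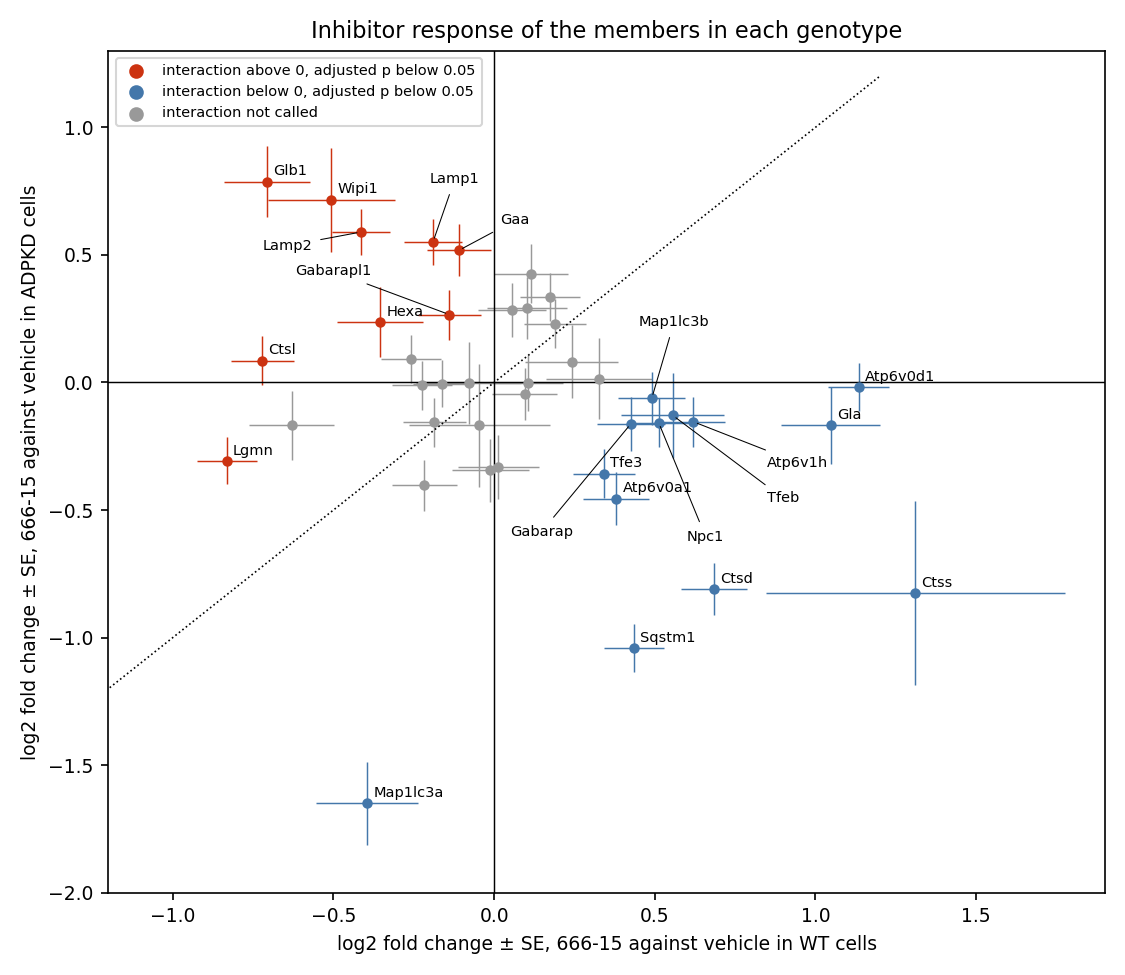
Log2 fold change ± SE for 666-15 against vehicle in WT cells (horizontal axis) and in ADPKD cells (vertical axis), with each point a member and colour for the call of the interaction term. Points on the dotted line would respond equally; Sqstm1, Ctsd and Gla lie below it and Glb1, Wipi1 and Lamp2 above it.

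With 666-15 in both genotypes, ADPKD cells had 9 of the 41 genes higher and 19 lower than WT cells. Over all genes tested 46.3% passed, 21.8% higher and 24.5% lower, and among genes with a mean of at least 5 CPM 58.5% passed. Libraries did not overlap at 35 of the 41 genes and at 73.8% of all genes. The median was -0.29 for the members and -0.03 for all genes. For the members it was -0.17 with the GC trend removed and -0.19 without either WT 666-15 replicate 2 or ADPKD 666-15 replicate 1. Ctss, Npc1 and Ctsd were higher and Lgmn, Mitf, Gabarapl1 and Tfeb were lower. Ctss had 1.97 ± 0.40 (edgeR adjusted p = 0.0051), Npc1 0.91 ± 0.10 (edgeR adjusted p = 8.22e-06) and Ctsd 0.86 ± 0.10 (edgeR adjusted p = 2.02e-05). Lgmn was lower by 1.35, Gabarapl1 by 1.25 and Mitf by 1.34. Sqstm1, at 0.16 ± 0.09 (edgeR adjusted p = 0.178), did not pass, and with the GC trend removed it did, at 0.41 (adjusted p = 0.00183). Lamp1 and Lamp2 did not pass either, at -0.21 ± 0.09 (edgeR adjusted p = 0.0805) and 0.13 ± 0.09 (edgeR adjusted p = 0.251). Lamp1 passed without WT 666-15 replicate 1, at -0.28 (adjusted p = 0.0325).

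Of the 5 genes of the ATG8 family and p62, 4 were lower in edgeR and 3 in DESeq2. Of the 4 V-ATPase genes, 3 were lower with both tools. The fourth, Atp6v1h, at -0.24, passed as lower with the GC trend removed, at -0.63 (adjusted p = 7.88e-05). Atp6v0d1 had -0.81 ± 0.09 (edgeR adjusted p = 1.81e-05), Map1lc3a -0.82 ± 0.16 (edgeR adjusted p = 0.00148) and Gabarap -0.71 ± 0.11 (edgeR adjusted p = 0.000143). Without WT 666-15 replicate 1 the value of Map1lc3a was -0.49. With the GC trend removed it was -0.42 (adjusted p = 0.0163), that of Gaa -0.38 (adjusted p = 0.00635), that of Hexa -0.47 (adjusted p = 0.0195), that of Psap -0.38 (adjusted p = 0.00338), that of Ulk1 -0.39 (adjusted p = 0.00479) and that of Grn 0.61 (adjusted p = 0.000124). Of the glycosidases 4 were lower, at -0.86 for Neu1, -0.78 for Glb1, -0.72 for Hexa and -0.70 for Gaa, and Gusb was higher at 0.67. In the same comparison all 18 proximal tubule, 10 of 12 intercalated cell and 7 of the 9 tested principal cell markers were lower, 7 of 8 endothelial markers were lower and 10 of 17 macrophage markers were higher. Their part in the members' values was not tested. Tfeb was lower by 1.14 (edgeR adjusted p = 0.000112), and by 0.75 with the GC trend removed. Atp6v1a was lower by 0.57, or by 0.36 without WT 666-15 replicate 2. The calls of Grn, Npc2, Ctsl, Becn1, Atg16l1, Atp6v0a1 and Map1lc3b ended when libraries were left out. Grn lost its call without ADPKD 666-15 replicate 1 or ADPKD 666-15 replicate 2 (0.33 to 0.35, adjusted p 0.0512 to 0.0648), Npc2 without WT 666-15 replicate 1, ADPKD 666-15 replicate 1 or ADPKD 666-15 replicate 2 (-0.37 to -0.22, adjusted p 0.0551 to 0.153) and Ctsl without ADPKD 666-15 replicate 2 (0.33, adjusted p = 0.0578). Becn1 lost it without ADPKD 666-15 replicate 2 (0.33, adjusted p = 0.0641), Atg16l1 without WT 666-15 replicate 2 or ADPKD 666-15 replicate 1 (0.40 to 0.55, adjusted p 0.0701 to 0.0745), Atp6v0a1 without ADPKD 666-15 replicate 2 (-0.35, adjusted p = 0.0755) and Map1lc3b without WT vehicle replicate 1, WT vehicle replicate 2, WT 666-15 replicate 1, ADPKD 666-15 replicate 1 or ADPKD 666-15 replicate 2 (-0.34 to -0.24, adjusted p 0.0516 to 0.189).

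Another 124 genes of the same pathways, listed by function and all tested, were read beside the 41. With vehicle, 33 were higher and 53 lower in ADPKD cells, against 28.8% and 27.6% of all genes tested. With 666-15 in ADPKD cells 38 rose and 29 fell, and in WT cells 28 rose and 20 fell. Among 27 other lysosomal hydrolases and cofactors, 19 were lower and 6 higher in ADPKD cells with vehicle, with a median of -0.97. In ADPKD cells 10 of these 27 rose with 666-15 and 4 fell, in WT cells 4 rose and 11 fell, and their interaction was above 0 for 12 and below 0 for 1. Over all genes tested 22.3% rose and 19.1% fell in ADPKD cells, 13.9% rose and 11.6% fell in WT cells, and 13.6% had an interaction above 0 and 13.0% below. Of the 18 proximal tubule markers, 13 rose in ADPKD cells, 13 fell in WT cells and 14 had an interaction above 0, and their part in these counts was not tested. Lipa, the acid lipase, was at 262 and 296 CPM in WT vehicle, 115 and 149.8 in WT 666-15, 24.5 and 30.7 in ADPKD vehicle and 23.2 and 29.5 in ADPKD 666-15. All ADPKD libraries were below all WT libraries, at -3.34 ± 0.17 (edgeR adjusted p = 2.59e-08) with vehicle. Gm2a, an activator protein of ganglioside breakdown, was at 165 and 170.5 CPM in WT vehicle, 99.1 and 100.3 in WT 666-15, 17.3 and 19.5 in ADPKD vehicle and 39.3 and 47 in ADPKD 666-15. It fell by 3.19 in ADPKD cells (edgeR adjusted p = 3.9e-10) and rose there with 666-15 by 1.23 ± 0.12 (edgeR adjusted p = 9.55e-06). Ppt1, a thioesterase, rose with 666-15 from 14.3 and 15.7 to 55.3 and 62 CPM in ADPKD cells, at 1.97 ± 0.13 (edgeR adjusted p = 8.28e-07). Ctsk, a collagen-degrading cathepsin, was at 1.99 and 2.48 CPM in WT vehicle, 2.05 and 1.71 in WT 666-15, 20.1 and 33.4 in ADPKD vehicle and 5.27 and 4.55 in ADPKD 666-15, higher in ADPKD vehicle than elsewhere, at 3.58 ± 0.29 (edgeR adjusted p = 3.12e-07). In the same comparison 7 of 8 stroma markers rose, from 0.0134% to 0.0178% of counts in WT vehicle to 0.0341% to 0.0598% in ADPKD vehicle, and their part in the level of Ctsk was not tested.

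Of 17 other lysosomal membrane proteins, 4 were higher and 5 lower in ADPKD cells with vehicle. Over all genes tested 28.8% were higher and 27.6% lower in this comparison. Hgsnat, which acetylates heparan sulfate at the lysosomal membrane, was at 69.2 and 71.7 CPM in WT vehicle, 109 and 104 in WT 666-15, 183 and 198 in ADPKD vehicle and 88.3 and 86.5 in ADPKD 666-15. It rose in ADPKD cells by 1.44 ± 0.10 (edgeR adjusted p = 5.34e-08) and fell there with 666-15 by 1.13 (edgeR adjusted p = 4.08e-06). Clcn7, a chloride-proton exchanger, rose by 1.41 ± 0.10 (edgeR adjusted p = 1.36e-07) and fell with 666-15 by 0.70 (edgeR adjusted p = 0.000172), or by 0.47 in the fit with the replicate block and without the GC trend. Tpcn1, a cation channel, fell in ADPKD cells by 2.57 (edgeR adjusted p = 9.4e-10), from 139.6 and 151 to 25.5 and 23.3 CPM. Of 17 other V-ATPase subunits, 9 were lower and 1 higher in ADPKD cells with vehicle. Atp6v1c2, a subunit isoform, was at 37.8 and 35.3 CPM in WT vehicle, 93.2 and 142 in WT 666-15, 4.72 and 4.51 in ADPKD vehicle and 20.2 and 35.5 in ADPKD 666-15. It was lowest in ADPKD vehicle, at -2.98 ± 0.32 (edgeR adjusted p = 8.73e-05), and rose with 666-15 by 2.59 ± 0.32 (edgeR adjusted p = 0.000474) there. Intercalated cell markers made up 0.0781% to 0.0839% of counts in WT vehicle and 0.189% to 0.232% in WT 666-15. They made up 0.0205% to 0.024% in ADPKD vehicle and 0.053% to 0.0611% in ADPKD 666-15. The part of these cells in the values of Atp6v1c2 and the other subunits was not tested. Atp6v0b fell with 666-15 in ADPKD cells by 0.80 (edgeR adjusted p = 9.65e-05), and was at -0.50 (adjusted p = 0.000987) with the GC trend removed.

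Of 30 other autophagy genes, 13 were higher and 7 lower in ADPKD cells with vehicle. The counts of this and the next lists stand beside 28.8% higher and 27.6% lower over all genes tested. Rubcn, which encodes Rubicon, a negative regulator of autophagosome maturation, was at 35.4 and 31.4 CPM in WT vehicle, 33.5 and 28.8 in WT 666-15, 75.4 and 75.2 in ADPKD vehicle and 46.3 and 35.8 in ADPKD 666-15. ADPKD vehicle was the highest group, at 1.17 ± 0.14 (edgeR adjusted p = 1.37e-05), and 666-15 lowered it there by 0.87 (edgeR adjusted p = 0.000392). Vmp1, a membrane protein of autophagosome formation, rose in ADPKD cells by 1.002 ± 0.12 (edgeR adjusted p = 1.79e-05). Tax1bp1, a cargo receptor, rose with 666-15 in ADPKD cells by 0.83 ± 0.11 (edgeR adjusted p = 9.47e-05), from 194 and 207 to 339.5 and 372 CPM, and was at 0.44 (adjusted p = 0.00238) with the GC trend removed. Of 24 genes of nutrient sensing at the lysosome, 6 were higher and 10 lower with vehicle. Sesn2, a leucine sensor that restrains mTORC1, was at 107 and 119 CPM in WT vehicle, 161 and 175 in WT 666-15, 232 and 219.6 in ADPKD vehicle and 153 and 159.8 in ADPKD 666-15. It rose by 0.999 ± 0.10 (edgeR adjusted p = 1.81e-06) in ADPKD cells. Lamtor4 and Lamtor5, subunits of the Ragulator scaffold, fell by 1.66 (edgeR adjusted p = 2.36e-06) and 1.39 (edgeR adjusted p = 7.56e-06). Rragd, a Rag GTPase, fell by 0.77 and rose with 666-15 in ADPKD cells by 1.17 ± 0.13 (edgeR adjusted p = 2.17e-05). Of 9 genes that sort lysosomal enzymes, 3 were higher and 3 lower with vehicle. Igf2r, the large mannose 6-phosphate receptor, rose by 0.93 ± 0.09 (edgeR adjusted p = 1.96e-06) in ADPKD cells. Sort1, the sorting receptor sortilin, was at 81.5 and 89.7 CPM in WT vehicle, 254 and 255 in WT 666-15, 153 and 135 in ADPKD vehicle and 266 and 263 in ADPKD 666-15. It was lowest in WT vehicle and rose with 666-15 in both genotypes, by 1.57 ± 0.10 (edgeR adjusted p = 5.48e-07) in WT and 0.88 ± 0.10 (edgeR adjusted p = 2.37e-05) in ADPKD cells. Gnptab, which makes the mannose 6-phosphate tag, rose with 666-15 in ADPKD cells by 1.34 ± 0.16 (edgeR adjusted p = 3.33e-05).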

How the data were processed

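The authors deposited a table of raw counts per gene, made with HISAT2 2.1.0 and featureCounts 1.6.0 on mm10, with DESeq2 also named, per the submitters' processing notes. The gene annotation, use of strand and handling of multi-mapping reads are not given in the sources used here. Vehicle columns were matched to samples by elimination. Counts were fitted in R 4.3.3 with edgeR 4.0.16 (limma 3.58.1): filterByExpr (minimum count 10, minimum total 15), TMM scaling, robust glmQLFit on the 4 groups with 4 residual degrees of freedom (common biological coefficient of variation 0.138) and two-sided glmQLFTest, with Benjamini-Hochberg adjustment over the 17440 genes at 0.05. Total counts were 15108793 to 19702638 per library. Positions, transcript lengths and GC content came from GENCODE M21 (GRCm38), and promoters from RefSeq (GRCm38.p6). The model was run on simulated counts drawn with the spread fitted to these data. They held no GC trend, sex difference or mix of cells, so that run cannot speak to those. Python 3.11.15 and matplotlib 3.10.9 served for the figures.

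The 41 members and all lists were chosen with earlier results of these data known. All members could be named. Of each list of other pathway genes, up to 2 rising and 2 falling genes with the largest change were eligible in each of 2 comparisons (genotype with vehicle, inhibitor in ADPKD), if they passed, averaged 5 CPM or more and had libraries that did not overlap. A gene that this rule names is not reported here. Of marker lists, the most abundant gene could be named. Markers at 0 in a library were also named, after their values were seen. Alternatives were RLE scaling, no filter, at least 5 CPM in 2 libraries, no robust option, a block for the replicate number, removal of a GC trend per library (lowess, span 0.3) without and with that block, the 2 groups alone, DESeq2 1.42.0, and leaving out each library. Replicate numbers did not pair libraries.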

Additional observations from a re-analysis of the deposited data

Results flagged for a closer look

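In 22 of the 41 genes the response to 666-15 differed between ADPKD and WT cells by the interaction term of the edgeR model, given here as the log2 fold change in ADPKD cells minus that in WT cells. It was above 0 for Glb1 (1.49), Wipi1 (1.22), Lamp2 (1.004), Ctsl (0.81), Lamp1 (0.74), Gaa (0.63), Hexa (0.59), Lgmn (0.52) and Gabarapl1 (0.40). It was below 0 for Ctss (-2.14), Ctsd (-1.49), Sqstm1 (-1.48), Map1lc3a (-1.25), Gla (-1.22), Atp6v0d1 (-1.15), Atp6v0a1 (-0.84), Atp6v1h (-0.77), Tfe3 (-0.70), Tfeb (-0.68), Npc1 (-0.67), Gabarap (-0.59) and Map1lc3b (-0.55). With the GC trend removed 13 genes were above 0 and 10 below. Over all genes tested 26.6% had such a difference. Of the 22 calls, 6 of the 9 above 0 and 8 of the 13 below 0 held in each of 16 alternative settings. Groups of 2 libraries were too small for a check of single libraries that stand apart.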

How the results depend on the processing

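There were 17 alternatives to each comparison and 16 for the interaction. Leaving out libraries 1 at a time gave 10 to 16 higher and 16 to 19 lower members between genotypes with vehicle, 5 to 11 and 4 to 10 for 666-15 in ADPKD cells, 7 to 11 and 4 to 6 in WT cells, 6 to 9 and 17 to 20 between genotypes with 666-15, and 6 to 11 and 9 to 12 for the interaction. A group left with 1 library was assumed to vary like the others. In WT cells the lower members numbered 9 with RLE scaling, 14 with the filter of 5 CPM in 2 libraries, 10 with the GC trend removed, 9 with the GC trend removed and the replicate block, and 8 with DESeq2, against 5. The cause was not tested. Directions of members that passed in either fit turned under GC removal for 666-15 in ADPKD cells at Tfeb (0.68, and 0.69 with the block) and Ulk1 (0.36 in both), and for the interaction at Tfeb (0.13 in both). Another 7 members changed sign for 666-15 in ADPKD cells without passing in either fit. Labels give the replicate numbers no shared origin, and libraries with equal numbers deviated together at correlations of -0.0371 to 0.0806. With the replicate number as a block the higher and lower members numbered 15 and 18 between genotypes with vehicle, 9 and 9 for 666-15 in ADPKD cells, 12 and 6 in WT cells, 9 and 19 between genotypes with 666-15, and 9 and 13 for the interaction. Ctss had 36 to 136 counts in each WT library.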
